A study of Pinus pinaster with 21 samples.

Results

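Seedlings of the conifer Pinus pinaster (maritime pine) were irrigated, and their roots were compared 2 h after the irrigation with 0.1 mM ammonium, given as NH4Cl, or with water. The comparison holds 6 of the 21 small RNA libraries of the series, 3 after ammonium and 3 after water. All seedlings were 1 month old, came from a single provenance and had spent 3 days on a nutrient solution that held no nitrogen before the irrigation. The water group therefore shares the nitrogen-free pretreatment and differs from the other in receiving 80 mL of water in place of 80 mL of 0.1 mM NH4Cl. Each library was made from the pooled roots of 10 seedlings. The experiment was carried out 3 times, and each water library was paired with the ammonium library of the same experiment. The comparison asks whether a low dose of ammonium changes the small RNA population of the root within 2 h.

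Ammonium is a main nitrogen source for conifer roots, which take it up through membrane transporters and assemble it into glutamine. MicroRNAs are short RNAs that guide the cleavage or the silencing of matching messenger RNAs, and in flowering plants several families respond to nitrogen supply. The deposited table names each small RNA by a serial label such as MIR_86. It gives neither a sequence nor a family for these labels, so no known role can be attached to any of them here, and the root identity of the samples was not checked against marker RNAs. Since whole roots were pooled, fewer cells of a type and less RNA per cell cannot be told apart.

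A count of 0 in the table means that a library does not list an identifier. The identifiers compared are those listed by all 6 libraries, 752 of the 32711 in the table and of the 13306 that at least 1 of the 6 libraries lists. A small RNA present after one treatment alone cannot be among them. They are 15.7% to 18.3% of the identifiers a library lists but hold 61.6% to 72.0% of its counts. Library totals ran from 6409777 to 8459275 counts, and totals over the 752 identifiers from 4443133 to 5709667. Levels below are CPM, the count divided by this total and scaled to 1e6. Just outside the rule stood 581 identifiers listed by 5 of the 6 libraries, with a median listed count of 313 against 816 for the 752. Each of the 6 libraries was the missing one for 78 to 111 of these 581, and the highest count among them was 152535. All 3 ammonium libraries and none of the water ones listed 57 further identifiers, and all 3 water libraries and none of the ammonium ones listed 51. Both counts are part of the 1163 identifiers that exactly 3 of the 6 libraries listed, whichever 3 these were. No fold is given for identifiers outside the 752.

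Among the 752 identifiers, a few held much of the counts after both treatments. The 10 with the highest mean CPM over the 6 libraries held 47.1% to 53.8% of the counts of the 752 in every library. An identifier that any of the 6 libraries did not list could not be among these 10. MIR_828, the most abundant, stood at 192155, 197535 and 209022 CPM after water in experiments 1, 2 and 3. After ammonium it stood at 170023, 200922 and 219440 CPM. The groups overlapped, and the difference on the log2 scale (ammonium minus water) was -0.03 with a standard error (SE) of 0.15 and a 95% interval of -0.40 to 0.35. MIR_352 stood at 94569, 118122 and 120723 CPM after water and at 99422, 109715 and 109554 CPM after ammonium. Its groups overlapped as well, with a difference of -0.06 (SE 0.15, interval -0.43 to 0.31). Both intervals lay well within 1 log2 unit of 0.

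**Figure D1:**
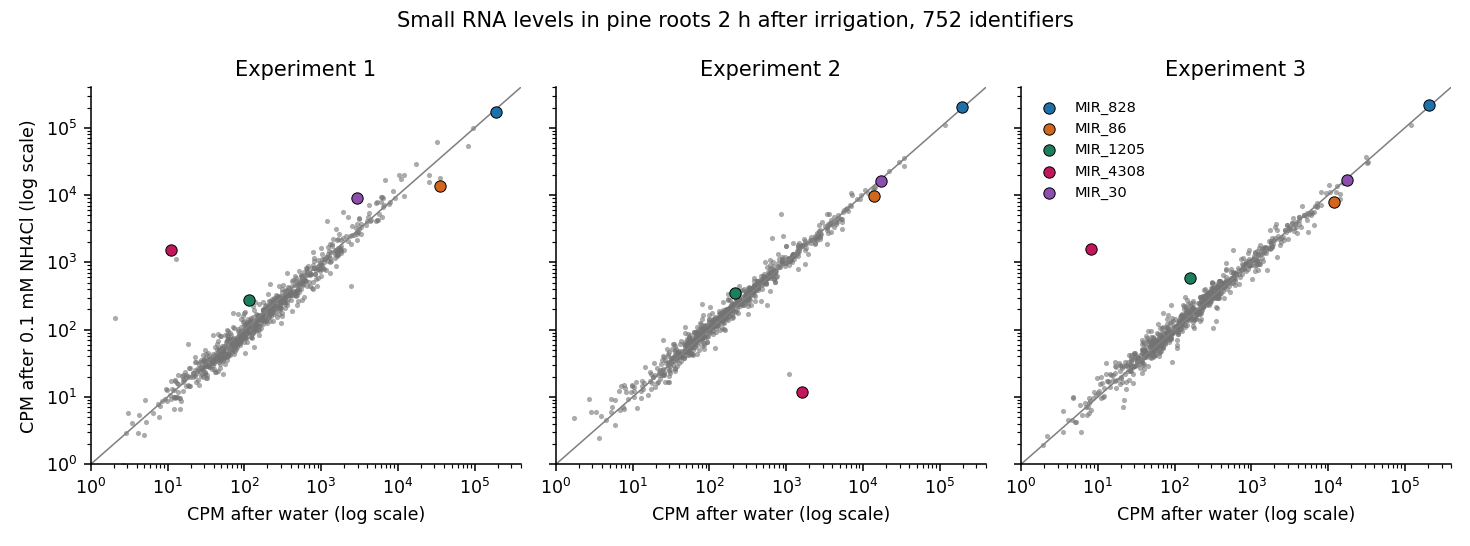
CPM after 0.1 mM NH4Cl (vertical axis) against CPM after water (horizontal axis), both on log scales, for the 752 identifiers in each of the 3 experiments; each point is 1 identifier and the line marks equal levels. Most points lie along the line, with MIR_828 on it in each panel, MIR_86 below it in all 3 and MIR_4308 above it in experiments 1 and 3 and below it in experiment 2.

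Among the other 8 most abundant identifiers, most of the difference lay in experiment 1. MIR_57 stood at 61431 CPM after ammonium in experiment 1 against 32028 CPM after water, whereas in experiments 2 and 3 it stood at 27225 and 31136 CPM against 34385 and 32752 CPM. MIR_183 stood at 17861 CPM after ammonium in experiment 1 against 35636 CPM after water, and at 30544 and 29902 CPM against 29200 and 31664 CPM in the others. Both were thus further apart across treatments in experiment 1 than in experiments 2 and 3, and in opposite directions there. The log2 difference of MIR_57 was 0.94 in experiment 1, -0.34 in experiment 2 and -0.07 in experiment 3. MIR_30 showed a log2 difference of 1.63 in experiment 1, of -0.08 in experiment 2 and of -0.07 in experiment 3. MIR_6 differed by -0.60, 0.08 and 0.23, and MIR_353 by -0.72, 0.05 and -0.11. MIR_36 differed by -0.36, 0.07 and -0.01 and MIR_829 by -0.33, -0.11 and 0.08. The 95% intervals of these 7 all held 0, the widest being that of MIR_30, from -0.41 to 1.41. Without experiment 1 the difference of MIR_57 turned from 0.18 to -0.20, that of MIR_30 from 0.50 to -0.07, that of MIR_6 from -0.10 to 0.16 and that of MIR_36 from -0.10 to 0.03. The eighth, MIR_86, kept its direction in all 3 experiments and is described below.

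Across all 752 identifiers, none passed the test of 0.1 mM ammonium against water. The quasi-likelihood test of edgeR, with the experiment as a block and Benjamini-Hochberg adjustment over the 752, called 0 identifiers (0%), with a smallest adjusted p of 0.981. At an unadjusted p under 0.05 stood 23 identifiers (3.06%), of which 20 were higher after ammonium and 3 lower, a split that became 16 and 13 with TMM factors, 20 and 11 with RLE factors and 10 and 9 with a total that leaves out the 10 most abundant. The limma test on log2 CPM also called 0, with 18 identifiers at an unadjusted p under 0.05. DESeq2 called 2, namely MIR_1205 (adjusted p = 0.000414) and MIR_86 (adjusted p = 0.019). The number of calls thus differed between tools.

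The differences themselves were small for most identifiers. Of the 752, 386 were higher and 366 lower after ammonium, with a median log2 difference of 0.01 and a median absolute difference of 0.12. With TMM factors 336 were higher and 416 lower, so the balance of directions turned with the scaling. The 95% interval lay within 1 log2 unit of 0 for 691 identifiers (91.9%) and within 0.5 log2 units for 238. The median distance from the estimate to either end of its interval was 0.44 log2 units. Smaller differences were thus mostly not detectable with 3 pairs, even before adjustment. The intervals are not adjusted for the number of identifiers, and 18 of the 752 left out 0. In 3 identifiers the estimate itself passed 1 log2 unit, namely MIR_1205, MIR_1086 and MIR_4308.

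**Figure D2:**
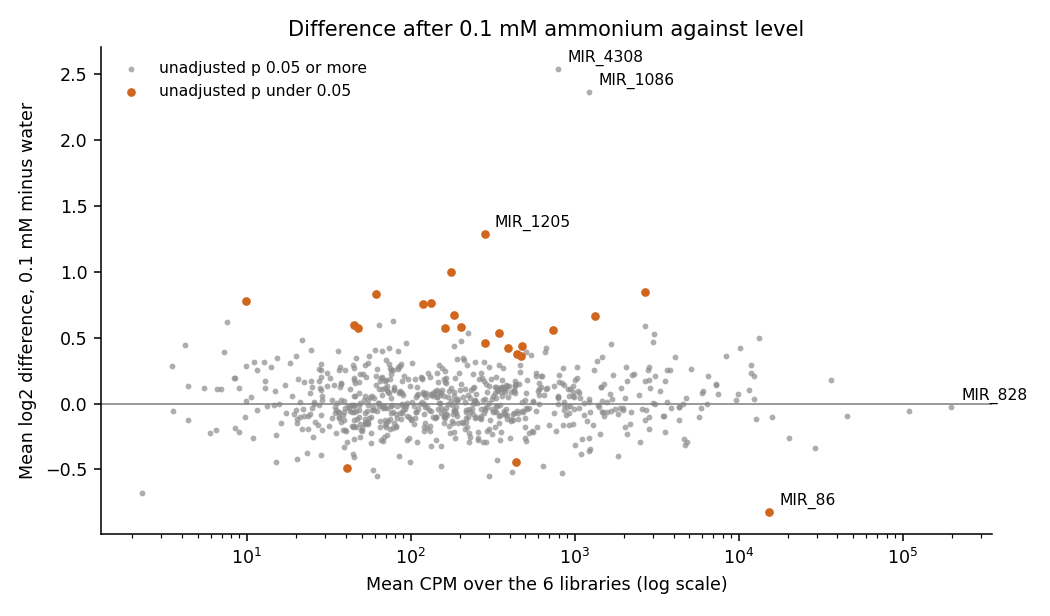
Mean log2 difference between 0.1 mM ammonium and water over the 3 experiments (vertical axis) against mean CPM over the 6 libraries (horizontal axis, log scale), 1 point per identifier; orange points have an unadjusted edgeR p under 0.05. Most identifiers lie near 0 at every level, and the 3 estimates past 1 log2 unit are MIR_4308, MIR_1086 and MIR_1205.

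The size of the differences varied little with abundance. The 289 identifiers with a mean under 100 CPM had a median absolute difference of 0.14 log2 units, the 339 from 100 to under 1000 CPM one of 0.11, and the 124 from 1000 CPM upwards one of 0.13. The last class held 85.6% to 88.8% of the counts of the 752 in each library. Counting error alone gives a log2 ratio of 2 paired libraries a median SD of 0.14 in the lowest class, 0.06 in the middle class and 0.02 in the highest. The median absolute difference between paired libraries in the highest class was 0.33 in experiment 1, 0.13 in experiment 2 and 0.17 in experiment 3. It was 0.29, 0.23 and 0.24 in the lowest class and 0.25, 0.17 and 0.19 in the middle class, in the same order. In every class, the median difference within a pair thus exceeded this counting SD. That SD covers counting error only. It takes each read as an independent molecule, which reads without molecular identifiers need not be, so counting error can be larger.

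The differences of the 3 experiments were at most weakly correlated across identifiers. In experiment 1, 473 of the 752 were lower after ammonium and 279 higher. In experiment 2, 477 were higher and 275 lower, and in experiment 3, 445 were higher and 307 lower. The median log2 difference was -0.11, 0.08 and 0.07 in experiments 1, 2 and 3. These leanings differ with the scaling. With TMM factors the medians were -0.01, -0.01 and -0.06, and experiment 2 had 358 higher and 394 lower. Across the 752 identifiers, Spearman's rho between the differences was -0.125 for experiments 1 and 2, 0.0148 for experiments 1 and 3 and -0.00371 for experiments 2 and 3. These values describe identifiers that share libraries and a common total and are not independent points. Identifiers higher after ammonium in all 3 experiments numbered 102 (13.6%), and 61 were lower in all 3 (8.11%). With TMM factors the balance turned, to 67 higher and 115 lower. With 3 pairs an exact two-sided sign-flip permutation test cannot give a p under 0.25, so none of these can pass 0.05 on its own.

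MIR_86, the eighth most abundant identifier, had the most negative difference among those with the same direction in all experiments and a mean of at least 10 CPM. It stood at 35109, 13864 and 11956 CPM after water in experiments 1, 2 and 3. It stood at 13667, 9826 and 7801 CPM after ammonium. The groups overlapped, because the ammonium value of experiment 1 lay above the water value of experiment 3, but within each experiment the ammonium library was the lower one. The log2 differences were -1.36, -0.50 and -0.62, with a mean of -0.82 (SE 0.22, interval -1.36 to -0.29, edgeR unadjusted p = 0.00878, adjusted p = 0.981). Without experiment 1 the mean was -0.56. Over the 9 alternative settings in which its edgeR test was refitted, the adjusted p ran from 0.491 to 1.000, against 0.019 in DESeq2.

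The other identifiers of this direction were less abundant. MIR_125 stood at 889, 747 and 610 CPM after water and at 441, 605 and 568 CPM after ammonium in experiments 1, 2 and 3. Every ammonium library lay below every water library, and the difference of -0.47 (SE 0.22) had an interval of -1.01 to 0.07. Most of it lay in experiment 1, with -1.01 there against -0.31 and -0.10 in experiments 2 and 3, and without experiment 1 it was -0.20. MIR_5669 stood at 32.7, 59.9 and 50.1 CPM after water and at 21.1, 43.9 and 38.5 CPM after ammonium, with overlapping groups and a difference of -0.49 (SE 0.15, interval -0.86 to -0.11). Its 3 differences, -0.63, -0.45 and -0.38, lay closer together than those of MIR_86. MIR_394 was at -0.44 (interval -0.90 to 0.01) and MIR_1579 at -0.41 (interval -0.82 to 0.01), and their groups overlapped. None of these 4 passed the edgeR test (adjusted p = 0.981 for each). Between the groups of 3 libraries as a whole, 13 identifiers (1.73%) had every ammonium value below every water value, and 25 did with TMM factors.

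**Figure D3:**
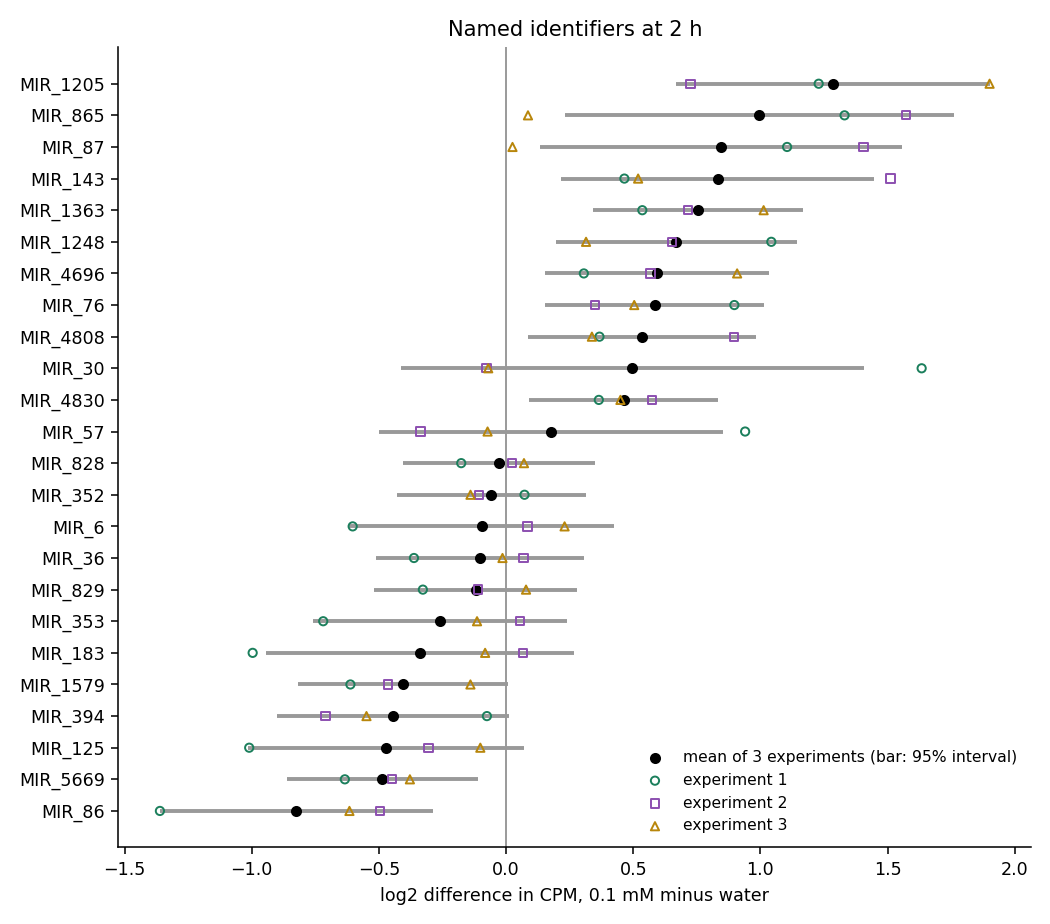
Log2 difference in CPM between 0.1 mM ammonium and water for the 24 named identifiers; open symbols are the 3 experiments, black points their mean and grey bars its 95% interval from limma. The intervals of MIR_86 and MIR_5669 lie below 0 and those of 10 identifiers, led by MIR_1205, lie above it, while experiment 1 stands apart in MIR_30, MIR_57 and MIR_183.

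MIR_1205 had the largest difference of the named identifiers. It stood at 116, 216 and 157 CPM after water in experiments 1, 2 and 3. It stood at 272, 356 and 587 CPM after ammonium, so that the lowest ammonium library lay above the highest water library. The means were 163 ± 50.0 CPM (SD, n = 3) after water and 405 ± 163 CPM (SD, n = 3) after ammonium. The log2 differences were 1.23, 0.72 and 1.90, with a mean of 1.28 (SE 0.25, interval 0.67 to 1.90). Its unadjusted p in edgeR, 0.00152, was the smallest of the 752, and its adjusted p was 0.981. Without experiment 2 the adjusted p was 0.042, and over all 9 refits it ran from 0.042 to 0.999. DESeq2 gave 0.000414. Its call thus turns on the tool and on experiment 2, which had the smallest difference, while its direction was the same in every refit. Since all 3 differences had the same sign, leaving out an experiment could not turn that direction.

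MIR_4830 had the narrowest spread between experiments of the named identifiers that were higher in all 3. It stood at 210, 262 and 236 CPM after water and at 270, 390 and 322 CPM after ammonium in experiments 1, 2 and 3, and the groups did not overlap. Its differences were 0.36, 0.57 and 0.45, with a mean of 0.46 (SE 0.15, interval 0.09 to 0.83). MIR_1363 stood at 72.9, 109 and 81.0 CPM after water and at 106, 180 and 163 CPM after ammonium. Its ammonium value in experiment 1 lay just below its water value in experiment 2, so the groups overlapped by that pair of libraries alone, and the difference was 0.75 (SE 0.17, interval 0.34 to 1.17). In all, 9 identifiers (1.2%) had every ammonium value above every water value, and 14 did with TMM factors. With RLE factors 18 lay above and 16 below, so that the balance turned.

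For other higher identifiers, 1 experiment differed from the rest. MIR_865 stood at 71.5, 80.4 and 233 CPM after water and at 180, 239 and 247 CPM after ammonium in experiments 1, 2 and 3. Its log2 difference was thus 1.33 and 1.57 in experiments 1 and 2 and 0.09 in experiment 3, with a mean of 1.00 (interval 0.23 to 1.76). MIR_87 stood at 2212, 922 and 2816 CPM after water and at 4757, 2440 and 2865 CPM after ammonium. Its difference was 1.10, 1.40 and 0.03, with a mean of 0.84 (interval 0.13 to 1.56). MIR_143 stood at 17.0, 24.8 and 94.7 CPM after water and at 23.4, 70.7 and 136 CPM after ammonium. Its difference was 0.46, 1.51 and 0.52, with a mean of 0.83 (interval 0.22 to 1.45). In MIR_865 and MIR_87 the water library of experiment 3 already stood near the ammonium level, and in MIR_143 the difference of experiment 2 was the large one, without which the mean was 0.49. MIR_1248 was at 0.67 (interval 0.20 to 1.14), MIR_4696 at 0.59 (interval 0.15 to 1.04), MIR_76 at 0.58 (interval 0.15 to 1.02) and MIR_4808 at 0.53 (interval 0.09 to 0.98). All 4 were higher after ammonium in 3 of 3 experiments. The groups of ammonium and water libraries overlapped for every identifier of this paragraph. None of the identifiers of this paragraph passed the edgeR test (adjusted p = 0.981 for each).

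**Figure D4:**
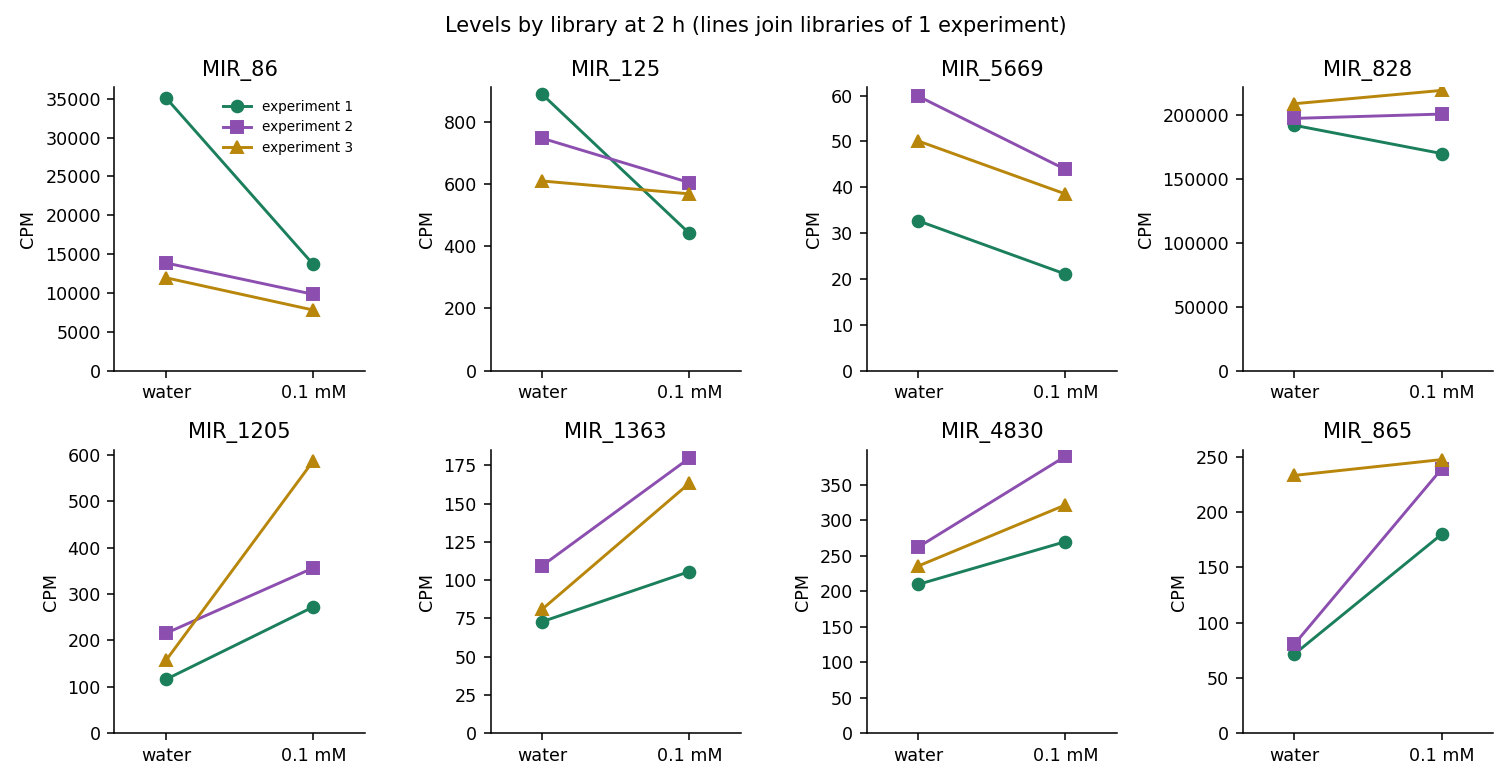
CPM of 8 identifiers in the 6 libraries, with water on the left and 0.1 mM ammonium on the right of each panel, each axis starting at 0; lines join the libraries of 1 experiment. All 3 lines of MIR_86, MIR_125 and MIR_5669 descend and all 3 of MIR_1205, MIR_1363, MIR_4830 and MIR_865 ascend, while those of MIR_828 go both ways.

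The distances within pairs were set beside those between experiments. The median absolute log2 difference between the libraries of a pair was 0.27, 0.19 and 0.21 in experiments 1, 2 and 3. Between water libraries it was 0.36 for experiments 1 and 2, 0.33 for experiments 1 and 3 and 0.22 for experiments 2 and 3. Between ammonium libraries it was 0.41, 0.35 and 0.22 in the same order. Across experiment and treatment it ran from 0.20 to 0.35. The ranks of the identifiers, which no scaling moves, gave the lowest values to the water library of experiment 1. Spearman's rho between that library and the other 5 was 0.950 to 0.970, and between the ammonium library of experiment 1 and the libraries of experiments 2 and 3 it was 0.970 to 0.978, against 0.974 to 0.987 among those 4. Both libraries of experiment 1 lay outside the range of the other 4 for 281 identifiers (37.4%), both of experiment 2 for 164 (21.8%) and both of experiment 3 for 97 (12.9%). Of the 281, 234 were below and 47 above the other 4 libraries. With TMM factors in place of the total, the split was 148 below and 121 above, a sum of 269. The counts for experiments 2 and 3 changed order with that scaling, to 104 and 128, and those of experiment 2 went from 151 above and 13 below to 57 above and 47 below.

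The test of any difference among the 3 experiments, in the same fit and chosen after the data were seen, called 0 of 752 identifiers (0%) in edgeR. Its smallest adjusted p was 0.0543, and limma called 0. At an unadjusted p under 0.05 in edgeR stood 150 of the 752, against 23 in the test of ammonium. MIR_143 and MIR_76, described above, were among the 8 identifiers at that smallest value. So was MIR_94, which stood at 17006 and 28679 CPM in experiment 1 after water and ammonium. In experiments 2 and 3 it stood at 5566 and 7270 CPM after water and at 5685 and 6856 CPM after ammonium. It was thus higher in both libraries of experiment 1 and differed little by treatment elsewhere. MIR_30 went the other way, with 2930 and 9092 CPM in experiment 1 and 16069 to 17575 CPM in the other 4 libraries. MIR_94, MIR_4308, MIR_1086 and MIR_320 are described because their values stood out and were not chosen by the rule for named identifiers.

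A few identifiers switched between far-apart levels from library to library. MIR_4308 stood at 1628 CPM after water in experiment 2 and at 1522 and 1555 CPM after ammonium in experiments 1 and 3. In the other 3 libraries it stood at 11.0 and 8.06 CPM (water, experiments 1 and 3) and at 11.9 CPM (ammonium, experiment 2). The high level occurred after both treatments and in all 3 experiments. Its log2 difference of 2.54 had an interval of -4.54 to 9.62. Without experiment 2 the 2 remaining pairs both went up, and edgeR then called it with an adjusted p of 8.0e-06. In the whole series its listed counts were 27 to 82 in 8 libraries and 7558 to 9800 in 6, with none between, and 7 libraries did not list it. MIR_1086 stood at 12.9 CPM after water in experiment 1 and at 1009 to 1776 CPM in the other 5 libraries. Its difference of 2.36 (interval -0.68 to 5.41) thus rests on that library. MIR_320 ran from 2.04 CPM (water, experiment 1) to 1072 CPM (water, experiment 2), with 151, 21.8 and 2.98 CPM after ammonium.

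**Figure D5:**
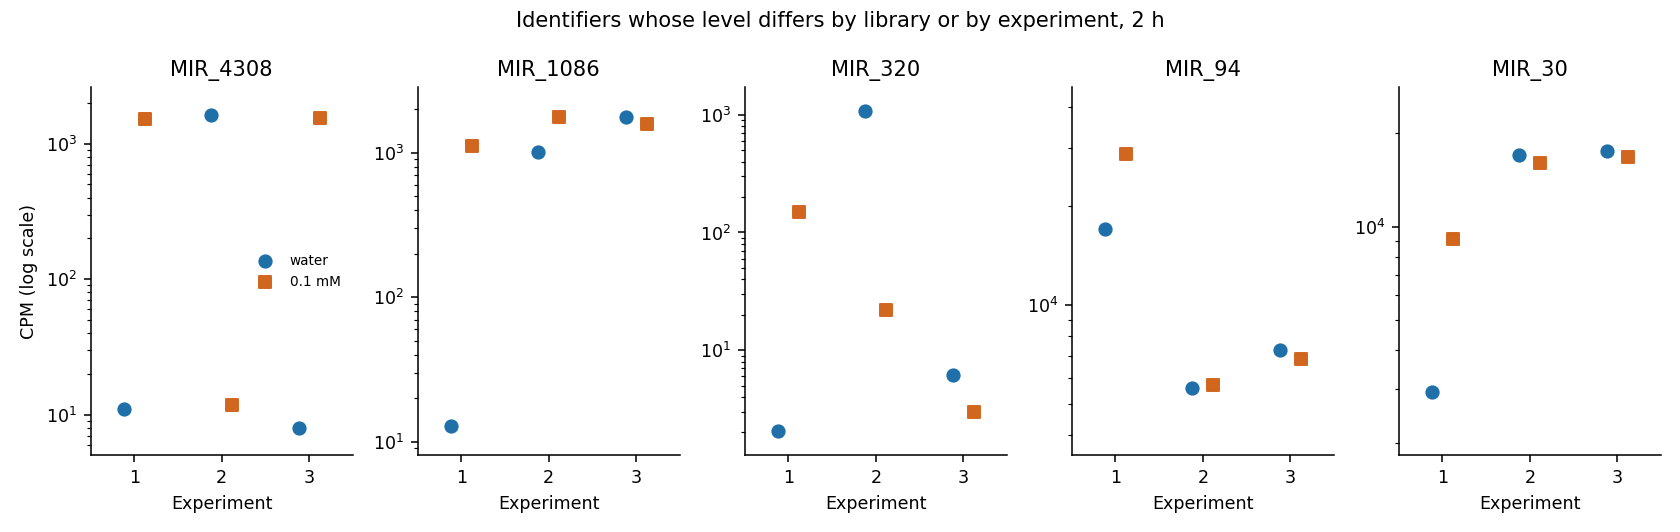
CPM (log scale, a separate range in each panel) of 5 identifiers by experiment, with circles for water and squares for 0.1 mM ammonium. MIR_4308 has 3 libraries above 1500 CPM and 3 at or below 11.9 CPM with both treatments in each set, MIR_1086 has 1 low library, MIR_320 spreads widely, and MIR_94 and MIR_30 have both libraries of experiment 1 on one side.

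The same dose was also sampled at 24 h, in libraries that share none with the comparison at 2 h. There, the ammonium library of experiment 1 listed 130 of the 752 identifiers, so only experiments 2 and 3 were used at 24 h. At 2 h all 3 experiments were kept, also in the interaction below, so the 2 times do not rest on the same experiments. Of the 752, 564 were listed by the 10 libraries concerned. Across these 564, Spearman's rho between the mean difference of 3 experiments at 2 h and that of experiments 2 and 3 at 24 h was 0.12. The interaction of ammonium with time called 0 of 564 (0%) in edgeR, with a smallest adjusted p of 0.947 and 27 at an unadjusted p under 0.05, and limma called 0. Of the 23 identifiers with an unadjusted p under 0.05 at 2 h, 16 could be followed. At 24 h, 3 of them kept their direction in both experiments, 5 went the other way in both and 8 went both ways. Over all 564, 163 kept the direction of the 2 h mean in both and 140 went against it in both.

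MIR_143 was among those that kept their direction, with log2 differences of 1.19 and 1.03 at 24 h in experiments 2 and 3. MIR_1205 differed by -1.11 and 0.84, and MIR_1363 by 0.09 and 0.24. MIR_86 was at 0.14 and 0.23 at 24 h, on the other side of 0 from 2 h. At 3 mM NH4Cl and 2 h, against the same water libraries, MIR_86 differed by -0.95, -0.29 and 0.23 in experiments 1, 2 and 3, and MIR_1205 by 0.10, -0.66 and 1.36. MIR_4830 differed by 0.29, 0.36 and 0.71 at 3 mM. MIR_1363, MIR_865, MIR_87 and MIR_4696 were also higher in all 3 experiments at 3 mM. MIR_143, MIR_1248, MIR_76, MIR_125 and MIR_394 went both ways there, MIR_76 only by a value of -0.004 in experiment 3. These values share their water libraries with those at 0.1 mM and are set beside them without a test.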

How the data were processed

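The authors deposited raw read counts per identifier for 21 libraries, not normalised. Per the labels' protocols, RNA of 18 to 30 bp was cut from gels and sequenced as single-end 50 bp reads. The tools bcl2fastq and edgeR are named, per the submitters' processing notes. The sources used here give no aligner, miRNA caller or build. No count in the 6 libraries lies between 0 and 5.

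Counts of the 752 identifiers above 0 in all 6 libraries were divided by their total per library. They were tested with edgeR 4.0.16 (quasi-likelihood F test, two-sided, experiment as a block, threshold 0.05) in R 4.3.3. Standard errors and 95% intervals come from limma 3.58.1 on log2 CPM without a pseudocount. DESeq2 1.42.0 was an alternative. The fit was checked on simulated data. The labels describe 3 independent runs of the experiment, which pairs the libraries. For 0.1 mM at 24 h, the labels of experiments 2 and 3 name the libraries otherwise than the deposited counts do. They were matched by experiment, time and dose. Deviations from the group means correlated at 0.281, -0.166 and 0.244 within experiments 1, 2 and 3.

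The identifiers and the rule for naming them were chosen with earlier results of these data known. The rule took the 10 highest by mean CPM. It took those past the threshold with the same sign in 3 of 3 experiments, or, where fewer than 5 passed, the 10 with the smallest p. It also took the 5 largest differences each way with the same sign in 3 of 3 and at least 10 CPM. A total of 24 were named. Alternatives were other scalings, filters, tools and fits, and each experiment left out.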

Additional observations from a re-analysis of the deposited data

Results flagged for a closer look

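In 4 named identifiers, 0.1 mM ammonium went one way in all 3 experiments at 2 h and the other way in both experiments that could be compared at 24 h. The interaction of ammonium with time (24 h minus 2 h, log2) was 1.00 for MIR_86, -0.78 for MIR_76, -1.46 for MIR_865 and -1.09 for MIR_87. None passed the edgeR test of the interaction over 564 identifiers (adjusted p = 0.947 for the first 3 and 0.982 for MIR_87). The interaction sets all 3 experiments at 2 h against experiments 2 and 3 at 24 h. Without experiment 1 the difference at 2 h was -0.56 for MIR_86, in place of -0.82, and 0.43 for MIR_76, in place of 0.58. It was 0.83 for MIR_865, in place of 1.00, and 0.71 for MIR_87, in place of 0.84. At 24 h, MIR_865 differed by -0.39 and -0.64 and MIR_87 by -0.18 and -0.58 in experiments 2 and 3. MIR_76 differed by -0.01 and -0.38, so its change of sign in experiment 2 rests on a value near 0. MIR_143, MIR_1363, MIR_4696, MIR_125 and MIR_1579, also named and of 1 direction at 2 h, kept it in both experiments at 24 h. MIR_1205, MIR_4830 and MIR_394 went both ways there, MIR_4830 only by a value of -0.000284 in experiment 2. MIR_1248, MIR_4808 and MIR_5669, also of 1 direction at 2 h, could not be followed at 24 h. Over all 564 identifiers, 163 kept the direction of the 2 h mean in both and 140 went against it in both. The rule that named these identifiers used their values at 2 h, and the interaction uses the same values.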

How the results depend on the processing

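Counts of calls moved in 2 places. DESeq2 with the replicate block called 2 identifiers, and leaving out each experiment in turn gave 0 to 2 calls, the 2 (MIR_1205 and MIR_4308) without experiment 2. The edgeR test without the replicate block called 0, as did every other alternative, while the number at an unadjusted p under 0.05 was 5 without the block and 23 with it. With a block, 691 intervals lay within 1 log2 unit of 0, and without it 644. Identifiers whose groups do not overlap numbered 22 (9 higher, 13 lower), against 39 with TMM factors (14 and 25), 34 with RLE factors (18 and 16) and 28 with a total without the 10 most abundant (5 and 23), settings chosen after the data were seen, as were the robust prior and TMM without the block. The split into 386 higher and 366 lower became 336 and 416 with TMM factors and 276 and 476 with that last total. Identifiers with the same direction in 3 experiments went from 102 higher and 61 lower to 67 and 115 with TMM factors, 84 and 95 with RLE factors and 40 and 103 with that total. The cause was not tested. Of 213 refitted differences of the named identifiers, 5 changed sign, all without experiment 1 and all among the 10 most abundant (MIR_828, at 0.05, MIR_6, MIR_57, MIR_36 and MIR_30). MIR_86 and the named identifiers outside these 10 had the same sign in all 3 experiments. Leaving out an experiment could thus not turn their sign, and its constancy there says nothing about how stable they are. The intervals hold for single identifiers and are not adjusted for their number. Of the 752 intervals, 18 left out 0, while the adjusted edgeR test called 0 identifiers.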
